A study of Mus musculus with 23 samples.

Results

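Control mouse gastrocnemius, a calf muscle, was compared between day 4 after an injection and day 0, without injection, across all genes measured. The comparison used 4 of the 23 arrays in the series, 2 control arrays of day 4 and 2 control arrays of day 0, chosen by their titles. The study profiled staged muscle degeneration and regeneration in mice lacking emerin or lamin A/C, proteins of the nuclear envelope tied to Emery-Dreifuss muscular dystrophy in patients, and in controls. Control day 4 was also set against 2 control arrays of day 3, and its response against those of lamin A/C KO (knockout) muscle, with 3 arrays each on day 4 and day 0, and of emerin KO muscle, with 3 arrays on day 4 and 2 on day 0. The titles give the controls as those of the lamin A line, and the description of control day 4 replicate 2 leaves out its genotype, so its group rests on its title. The labels used here name no injected agent, strain, age or sex, and do not tell whether replicate arrays came from separate animals. The p-values therefore measure the spread between replicate arrays over all 9 groups of the series, KO groups included, which may be technical.

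Skeletal muscle rebuilds itself from satellite cells, stem cells that lie on the surface of the fiber. After an injury they divide as myoblasts, switch on the regulators Myod1 and Myog, leave the cell cycle and fuse into myotubes, which at first make embryonic and neonatal forms of the contractile proteins and of the acetylcholine receptor. Macrophages meanwhile remove dead fibers, and fibroblasts lay down a provisional matrix around the new ones.

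Each value below is the signal of a gene's brightest probe set after every array had been brought to a trimmed mean of 500, so that signals can be compared between arrays but not between genes. A difference is that of log2(signal + 32), day 4 minus day 0, with its standard error (SE) from limma fitted to all 9 groups, and passed the test at a Benjamini-Hochberg adjusted p under 0.05 over the 11164 genes tested. "Rose" and "fell" are used of genes that passed. A signal of 100 was the minimum, and where both arrays of a day lay under it the fold is a bound, the mean of the brighter day over 100. Values are given for replicate 1 and then replicate 2 of each day.

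Lmna, the gene of lamin A/C, had 60.2, 71.1 and 81 on lamin A/C KO day 4 and 3785 and 3702 on control day 4, against 67.7, 56.5 and 109 on KO day 0 and 923 and 856 on control day 0. Emd, which encodes emerin, had 239, 169 and 213 on emerin KO day 4 and 663 and 722 on control day 4, against 371.5 and 465 on KO day 0 and 587 and 769.6 on control day 0. Both genes were thus lower on every KO array than on every control array of these days. The summed signal of 8 muscle fiber markers was 83006 and 94768 on day 4, against 205251 and 197909 on day 0, and 8 of the 8 fell, among them Mb, whose probe sets disagreed in direction. That of 6 macrophage markers was 23645 and 23865 on day 4, against 4341 and 5288 on day 0, and 6 of the 6 rose. In bulk muscle, fewer cells of a type and less RNA per cell cannot be told apart, which holds for every gene below, and the part of cell composition was not tested. The Gapdh 3'/5' signal ratio, a measure of RNA quality, was 0.932 and 1.23 on control day 4, against 0.829 and 0.949 on control day 0. The 2 day 4 arrays correlated at 0.9589 with each other (Pearson's r of log2 values). Their correlations with the day 0 arrays were 0.8694 to 0.8906, and the day 0 arrays correlated at 0.9693 with each other.

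By day 4, 33 of 35 macrophage genes and 37 of 44 mitosis genes had risen, and 26 of 28 genes of mature fast contraction, 16 of 22 of calcium release and 60 of 62 of oxidative phosphorylation had fallen. Lists of new fibers and of matrix rose in part, with 6 of 10 embryonic and fetal contractile genes, 14 of 29 fusion and adhesion genes and 16 of 30 collagen genes higher. Of the 11164 genes, 2178 (19.5%) rose and 1592 (14.3%) fell, and the median difference over all genes was 0.030. Another probe set of the same gene had the opposite sign for 293 of the genes that rose and 154 of those that fell. The difference exceeded 2 on the log2 scale, a change of over 4-fold in signal + 32, for 279 of the genes that rose and 150 of those that fell, and 3 for 63 and 19. The arrays of the 2 days did not overlap for 2173 of the genes that rose and 1590 of those that fell. Without overlap, whatever the test, were 34.9% of all genes higher and 30.9% lower on day 4.

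The largest rises mixed 2 kinds of gene. Gpnmb, a glycoprotein of phagocytes' lysosomes, had 7321 and 5999.6 on day 4, against 138 and 234 on day 0, a log2 difference of 4.97 ± 0.34 (adjusted p = 5.3e-10). Tnnt2, the embryonic and cardiac troponin T, read by a probe set that can also bind related transcripts (its other probe set gave 4.47), had 6319 and 5020.3 on day 4, against 134 and 231 on day 0 (4.76 ± 0.23, adjusted p = 6.5e-12). For both, the day 4 arrays lay far above the day 0 arrays. Of genes active in macrophages and related cells there were also Lgals3 (galectin 3, log2 difference 4.69), Mpeg1 (a pore-forming protein, 4.44), Fcer1g (the signaling chain of Fc receptors, 4.12), Cyba (a subunit of the phagocyte oxidase, 3.87) and Cotl1 (an actin-binding protein, 3.87). The 4 other probe sets of Cotl1 gave 0.85 to 2.84. Which cells made these transcripts was not tested. The nucleotide receptor P2ry6 rose at least 9.58-fold, Lst1, a leukocyte transcript, at least 7.95-fold, and the collagenase Mmp13 at least 8.74-fold, each with both day 0 arrays under the minimum. New fiber genes made up much of the rest, with Myh3, Myh8, Myl4, Chrng and Runx1 among the 15 largest rises.

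Among the 15 largest falls of genes with a name were genes of the fiber, and also Chad, Zbtb16 and Aldh1a1. Left out was 1 cDNA clone or gene model that fell by more than Myh7, the last of the 15. Myl3, the slow and cardiac essential myosin light chain, had 660 and 399 on day 4, against 15298 and 14673 on day 0 (-4.78 ± 0.31, adjusted p = 3.8e-10). Tuba8, an alpha-tubulin abundant in muscle, had 263 and 154 on day 4, against 5008 and 3299.7 on day 0 (-4.13). Both day 4 arrays of each lay far under the day 0 arrays, with replicate 2 the lower. Phkg1 and Phka1 encode the catalytic and a regulatory subunit of phosphorylase kinase, which couples glycogen breakdown to contraction: Phkg1 fell at least 21.4-fold and Phka1 fell by 3.19 on the log2 scale. Rpl3l, a muscle form of the ribosomal protein L3, had 533 and 372 on day 4, against 7047 and 5801 on day 0 (-3.75), and Mlf1 had 314 and 229 on day 4, against 3930.2 and 4317 on day 0 (-3.79). Aqp4, the water channel of the fast fiber's membrane, fell at least 11.9-fold, the potassium channel Kcnc4 at least 6.68-fold and the phosphatase 1 inhibitor Ppp1r1a at least 9.03-fold. The transcription factor Zbtb16 had 65.2 and 78.8 on day 4, against 1692 and 499 on day 0, with day 0 arrays far apart, and fell at least 4.99-fold by replicate 2 of day 0 alone. Aldh1a1, a retinaldehyde dehydrogenase, fell by 3.28 and Chad, a matrix protein of cartilage and tendon, fell by 3.64. Chad is 1 of 4 tendon markers, whose summed signal was 7014 and 4623 on day 4, against 9061 and 10253 on day 0, and the part of tendon in its fall was not tested.

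**Figure D1:**
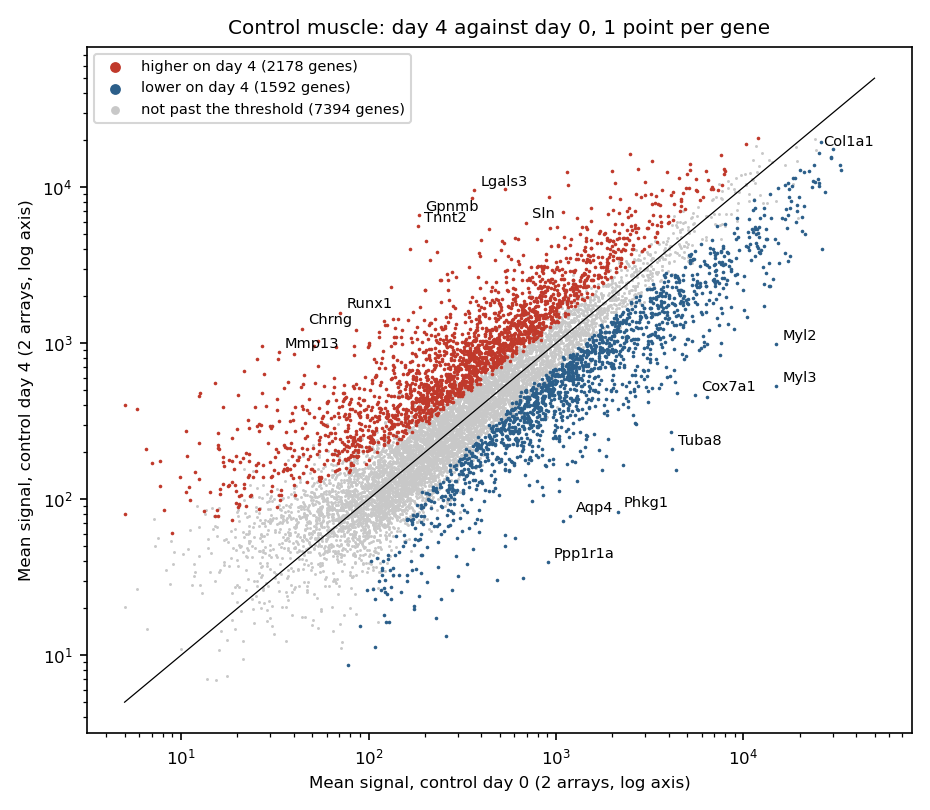
Mean signal of each of the 11164 genes on the 2 control day 4 arrays (vertical, log axis) against the 2 control day 0 arrays (horizontal, log axis). Red points are the 2178 genes that rose, blue points the 1592 that fell, grey points the rest, and the line marks equal signals.

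Of the embryonic and fetal forms of the contractile proteins, which mark new fibers, some were among the 15 largest rises of all genes and others did not pass. Of 10 such genes tested, 6 rose and 2 fell, with a median of 0.92. Myh3, the embryonic myosin heavy chain, had 7599 and 9585 on day 4, against 318 and 399 on day 0 (4.46 ± 0.32). Myh8, the neonatal heavy chain that follows it in development, had 3891 and 5109 on day 4, against 209.6 and 195 on day 0 (4.26 ± 0.22). Myl4, the embryonic essential light chain, had 9541 and 10053 on day 4, against 363 and 701 on day 0 (4.19 ± 0.23), with a dimmer probe set at 0.15. For each of the 3, both day 4 arrays were above both day 0 arrays by a wide margin. Actc1, the cardiac actin that developing skeletal muscle also uses, went the other way, with 11752 and 13254 on day 4, against 22743 and 19542 on day 0 (-0.75, adjusted p = 0.01), a fall that did not pass with quantile normalization of the arrays (-0.29) or when control day 0 replicate 1 (-0.65) or control day 4 replicate 1 (-0.67) was left out.

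The list of myogenic regulators was divided, with 7 of 24 higher, 6 lower and a median of -0.039. With any 1 of the 4 arrays left out, 3 fell. Myog, the factor that drives myoblasts into differentiation, had 3895 and 3351 on day 4, against 665 and 448 on day 0 (2.66 ± 0.20, adjusted p = 2.6e-09). Myod1, which commits cells to the muscle lineage, had 1873 and 1321 on day 4, against 708 and 826 on day 0 (1.01). Both rose without overlap of the arrays. Msc, a repressor that competes with Myod1 for its sites, rose by 2.63, and Id2, which blocks such factors from binding DNA, by 1.94. Myf6, the factor of adult fibers, fell, with 1085 and 1009 on day 4, against 1759 and 1756 on day 0 (-0.73), though not with any 1 of the 4 arrays left out (-0.78 to -0.68), and so did Mef2c, the partner of the myogenic factors (-1.08), Lbx1 (-1.76) and the sarcomere chaperone Smyd1 (-2.06). Csrp3, a muscle LIM protein, had 4961 and 3902 on day 4, against 5513 and 1907 on day 0 and did not pass (adjusted p = 0.46), but without control day 0 replicate 1 it was higher on day 4 past the threshold (1.19, adjusted p = 0.039).

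Genes of myoblast fusion and adhesion moved in 1 direction, with 14 of 29 higher and 0 lower. Mymk (myomaker), the membrane protein that fusion requires, had 2730.3 and 2378 on day 4, against 228 and 302 on day 0 (3.13 ± 0.24). The metalloprotease Adam12, made by regenerating myotubes, rose by 2.72, N-cadherin (Cdh2) by 2.0 and M-cadherin (Cdh15) by 0.85. The integrin ligand Npnt (nephronectin) rose by 2.23. Fst (follistatin), an inhibitor of myostatin, had 289 and 349.6 on day 4, against 222 and 270.4 on day 0 and did not pass.

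Among the subunits of the acetylcholine receptor, the fetal form rose and the adult form fell. The gamma subunit Chrng, which immature and denervated fibers use, had 1139 and 1345 on day 4, against 25.9 and 62.5 on day 0, at least 12.4-fold higher on its brightest probe set (adjusted p = 5.8e-09). Its 2 other probe sets gave smaller log2 differences, 0.75 and 2.84. Chrne, the epsilon subunit that replaces gamma in the adult junction, had 54.1 and 87.2 on day 4, against 227 and 204 on day 0 and fell at least 2.16-fold (adjusted p = 0.025), a call lost with a pseudocount of 1 (adjusted p = 0.068) and without control day 0 replicate 1 (0.12), day 0 replicate 2 (0.075) or day 4 replicate 1 (0.16). Chrna1, the alpha subunit common to both forms, had 4672 and 4610.1 on day 4, against 845 and 737 on day 0 (2.51 ± 0.16). The other junction genes did not follow: 11 of 14 did not pass, among them the organizing kinase Musk (-0.04), and Chrnd, the delta subunit, was under the minimum on all 4 arrays. Runx1, a transcription factor high in denervated and regenerating muscle, had 1386 and 1762 on day 4, against 61 and 79.7 on day 0, at least 15.7-fold higher on its brightest probe set. Its 4 other probe sets gave smaller log2 differences, from 0.26 to 2.50.

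The promoters of 4 of these genes are shown because all 4 rose and the Myog protein binds the E-box, CANNTG. That of Chrnd was also planned but is not shown, so no gene that did not rise stands beside them. A link between the E-boxes and the rise was not tested. The sequences are the 250 bases before the start of each gene in RefSeq (build GRCm38.p6), 5′ to 3′ on the gene's strand, with each E-box in capitals. The word reads CANNTG on both strands, so 1 search covers them.
Chrng, chr1:87205561-87205810, plus strand: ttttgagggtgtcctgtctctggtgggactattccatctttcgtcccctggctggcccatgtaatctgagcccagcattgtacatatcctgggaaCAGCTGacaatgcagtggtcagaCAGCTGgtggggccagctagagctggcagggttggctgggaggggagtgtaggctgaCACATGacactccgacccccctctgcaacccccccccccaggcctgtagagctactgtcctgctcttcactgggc
Chrna1, chr2:73580339-73580588, minus strand: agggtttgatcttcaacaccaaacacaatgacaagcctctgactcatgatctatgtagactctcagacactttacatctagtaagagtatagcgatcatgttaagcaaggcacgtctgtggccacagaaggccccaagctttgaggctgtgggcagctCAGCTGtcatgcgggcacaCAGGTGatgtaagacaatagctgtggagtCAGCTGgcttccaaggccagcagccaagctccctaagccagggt
Myog, chr1:134289754-134290003, plus strand: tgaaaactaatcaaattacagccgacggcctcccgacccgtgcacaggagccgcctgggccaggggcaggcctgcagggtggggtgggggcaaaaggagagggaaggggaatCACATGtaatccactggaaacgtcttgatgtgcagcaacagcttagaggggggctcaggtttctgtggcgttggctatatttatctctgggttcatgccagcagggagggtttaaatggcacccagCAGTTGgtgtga
Myl4, chr11:104550413-104550662, plus strand: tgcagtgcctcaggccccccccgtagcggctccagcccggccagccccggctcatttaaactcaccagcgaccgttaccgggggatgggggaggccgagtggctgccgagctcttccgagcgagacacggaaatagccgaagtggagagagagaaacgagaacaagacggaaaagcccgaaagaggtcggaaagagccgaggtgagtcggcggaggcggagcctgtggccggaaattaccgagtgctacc
Chrng and Chrna1 held 3 E-boxes each, Myog held 2 and Myl4 held 0. Of 32851 RefSeq promoters cut to the same length, 66.2% held at least 1, 31.8% at least 2 and 12.2% at least 3. A match shows these letters and no binding.

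Imprinted genes and growth factors, many of them high in development, rose in 12 of 21 cases, with 1 lower. Mest had 6594 and 4442 on day 4, against 950.5 and 910.4 on day 0 (2.50 ± 0.25). Igf2, the fetal insulin-like growth factor, had 8411 and 8321 on day 4, against 2349 and 2016 on day 0 (1.93 ± 0.21). Peg3 (1.88), Plagl1 (1.65), Dlk1 (1.5) and the Cdk inhibitor Cdkn1c (1.46) also rose. Igf1 had 3839 and 2469 on day 4, against 2119 and 1641 on day 0, higher on both day 4 arrays but short of the threshold (0.71, adjusted p = 0.11), which it passed in 4 of 17 alternatives, among them the mean of all probe sets (0.92, adjusted p = 0.0019). The member that fell was Vegfa, the vascular growth factor, with 261 and 233 on day 4, against 950.1 and 1057 on day 0 (-1.89).

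**Figure D2:**
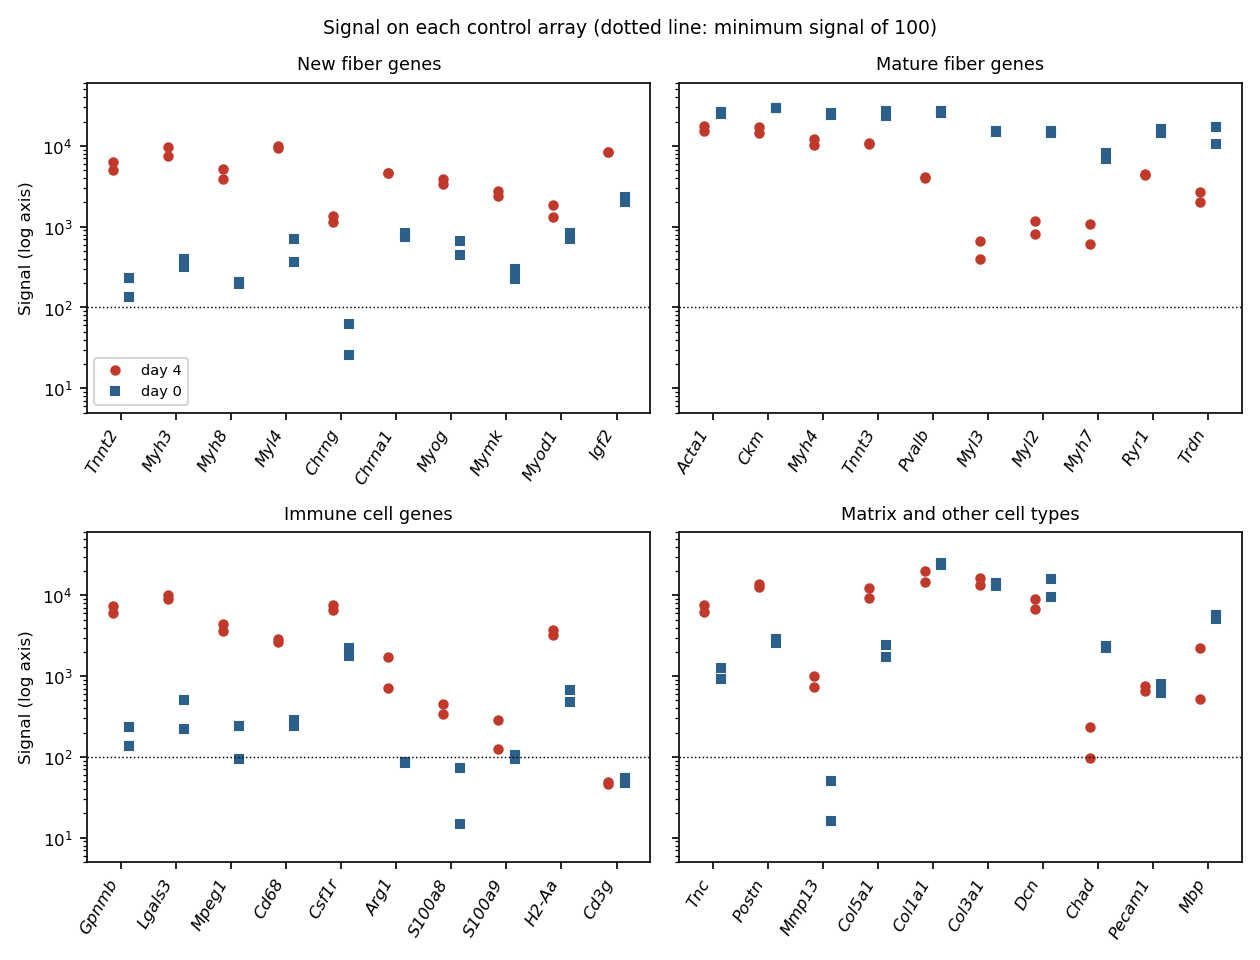
Signal (log axis) of 40 named genes on each of the 2 control day 4 arrays (red circles) and 2 control day 0 arrays (blue squares), in 4 panels by the kind of gene. New fiber and macrophage genes lie higher on day 4, mature fiber genes lower, and the array pairs of Col1a1, Col3a1, Dcn, Pecam1 and Cd3g do not differ past the threshold.

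In the mature fast fiber, contractile genes fell almost without exception: 26 of 28 fell, 0 rose, and the median was -1.23. With quantile normalization of the arrays 16 fell. Acta1, the skeletal actin, had 15358 and 17837 on day 4, against 26307 and 24457 on day 0 (-0.61 ± 0.18), turned to 0.038 with quantile normalization and did not pass without control day 0 replicate 1 (-0.56) or control day 4 replicate 1 (-0.51). Ckm, the muscle creatine kinase, had 14522 and 16920.1 on day 4, against 29559.8 and 29022 on day 0 (-0.90), and Myh4, the myosin heavy chain of the fastest fibers, had 10393 and 12318 on day 4, against 25793 and 24060 on day 0 (-1.14). Pvalb, the calcium buffer of fast fibers, had 3977 and 4089 on day 4, against 27107 and 25393 on day 0 (-2.69 ± 0.52), and Mylk2, the skeletal myosin light chain kinase, fell by 2.43. Both arrays of day 4 lay under both of day 0 for each of these genes. The troponins Tnnc2, Tnni2 and Tnnt3 also fell (-0.77, -1.23 and -1.23). With quantile normalization Ckm (-0.35), Myh4 (-0.65), Tnnc2 (-0.20) and Tnni2 (-0.65) did not pass, and without control day 4 replicate 1 neither did Myh4 (-1.01). Myh2, the heavy chain of oxidative fast fibers, had 7186 and 5435 on day 4, against 20117 and 18889 on day 0, yet its difference of -1.64 ± 0.86 did not pass (adjusted p = 0.16); it passed with only the control arrays in the fit (0.0033).

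The slow fiber list split, with 4 of 13 higher and 6 lower. Myh7, the slow heavy chain, had 1066 and 617 on day 4, against 8087 and 6916 on day 0 (-3.15 ± 0.27), and Myl2, the slow regulatory light chain, had 1163 and 802 on day 4, against 14403 and 15455 on day 0 (-3.90 ± 0.43). With Myl3, these 3 slow myosin genes were among the 15 largest falls of genes with a name. Other genes of slow fibers rose. Sln (sarcolipin), a small inhibitor of the calcium pump, had 5910.1 and 5971 on day 4, against 711 and 667 on day 0 (3.05 ± 0.24), and the slow troponin I Tnni1, which all fibers use during development, had 9110.5 and 10078 on day 4, against 4834 and 6381 on day 0 (0.78; 0.58 and not past the threshold without control day 0 replicate 1). Casq2, the slow and cardiac calsequestrin, rose by 0.92. A dimmer probe set of Sln gave a far smaller difference than its brightest one.

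Genes that carry the electrical signal into calcium release fell in 16 of 22 cases (median -1.63). Ryr1, the calcium release channel, had 4399 and 4436 on day 4, against 14474 and 16224 on day 0 (-1.79 ± 0.20). Its voltage sensor Cacna1s fell by 1.89, triadin (Trdn), which anchors calsequestrin to the channel, fell by 2.52, and the calcium pump Atp2a1 fell by 1.35. Clcn1, the chloride channel that stabilizes the resting fiber, had 35 and 26 on day 4, against 552 and 416 on day 0 and fell at least 4.84-fold. The 2 members that rose were Sln and Atp1b4, a protein of the sodium pump beta family found in the nuclear envelope of perinatal muscle, which had 1490.5 and 1172 on day 4, against 253 and 333 on day 0 (2.07 ± 0.35).

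At the Z-disc, where neighboring sarcomeres join, 16 of 23 genes fell and 2 rose. Tcap (telethonin) had 3437 and 3819 on day 4, against 17638 and 17768 on day 0 (-2.28), Ldb3 had 2917 and 2228 on day 4, against 14174 and 14638 on day 0 (-2.48), and Myoz1, a calcineurin-binding protein of fast fibers, fell by 2.24. The related stretch-responsive ankyrin repeat genes moved apart. Ankrd1 had 2019.6 and 1326 on day 4, against 338 and 239.7 on day 0 (2.40 ± 0.28), whereas Ankrd2 had 1429 and 707 on day 4, against 5067 and 3246 on day 0 (-1.98 ± 0.60). The fall of Ankrd2 did not pass without control day 0 replicate 1 (-1.66) or control day 4 replicate 2 (-1.48), nor with a pseudocount of 1 (-2.01). The dystrophin complex links the cytoskeleton to the matrix, and 6 of its 19 genes fell while 4 rose. Of all genes 14.3% fell and 19.5% rose, so the share of rises in this list was near that of all genes. Alpha-sarcoglycan (Sgca) had 1077 and 809.9 on day 4, against 3759.6 and 3602 on day 0 (-1.94). The rises included laminin chains, the ligands of the complex outside the fiber, Lamb1 by 1.5 and Lama4 by 1.0.

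Energy metabolism fell as a block. All 22 genes of the citrate cycle and pyruvate entry fell (median -1.45), as did 60 of 62 genes of oxidative phosphorylation (median -1.28) and 21 of 27 of fatty acid uptake and oxidation (median -1.07), against 14.3% of all genes. Cs, citrate synthase, had 3153 and 2855 on day 4, against 8675 and 8494 on day 0 (-1.51 ± 0.18). Mpc1, a subunit of the carrier that brings pyruvate into mitochondria, had 1165 and 809 on day 4, against 6351 and 6372 on day 0 (-2.67), and Pdk2, a kinase that switches pyruvate dehydrogenase off, had 627 and 612 on day 4, against 3844 and 4243 on day 0 (-2.64). Subunits of complex I such as Ndufs1 (-1.83) and Ndufb5 (-1.71) and the complex II subunit Sdha (-1.28) fell by similar amounts. Fabp3, the muscle fatty acid carrier, had 1849 and 1573 on day 4, against 8137 and 9065 on day 0 (-2.31). Ppargc1a, the coactivator that raises mitochondrial genes, had 248 and 115 on day 4, against 618 and 508 on day 0 (-1.55), and its partner Esrra fell by 1.45. Cd36, the fatty acid transporter, had 1336 and 2343 on day 4, against 2612 and 3287 on day 0 and did not pass. It passed as lower with the mean of all probe sets (-0.83) and with the replicate number as a block (-0.72).

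Glycolysis and glycogen genes fell in 21 of 30 cases and rose in 6. Pygm, the muscle glycogen phosphorylase, had 3801 and 3736 on day 4, against 17268 and 15999 on day 0 (-2.13 ± 0.31), and Slc2a4 (GLUT4), the insulin-responsive glucose transporter, had 674 and 663 on day 4, against 4426 and 4086 on day 0 (-2.61 ± 0.19). Hk2, the muscle hexokinase, fell by 1.81 and Eno3, the muscle enolase, fell by 1.22. Among the rises were Pgam1, with 1820.1 and 1902 on day 4, against 383 and 367 on day 0 (2.22), and Pfkl, with 1217 and 1379 on day 4, against 227 and 286 on day 0 (2.21), which are forms of glycolytic enzymes used outside muscle.

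Such forms are set side by side for 12 pairs of a muscle or adult fiber form and another form of the same protein or family. The pairs were picked because of their values, so they are a description and their number supports nothing. For cytochrome oxidase, Cox6a2 had 3368 and 3358 on day 4, against 17563 and 16815 on day 0, and the widely used Cox6a1 had 8159.7 and 9601 on day 4, against 3969 and 4223 on day 0. Cox8b fell by 2.88 and Cox7a1 fell by 3.48; Cox8a rose by 1.04 on its brightest probe set, with its others between -1.25 and 1.0. In glycolysis Pgam2 fell by 1.96 and Pfkm fell by 1.62. The elongation factor Eef1a2, the form of adult muscle and nerve, had 5349.6 and 6685 on day 4, against 19639 and 18276 on day 0, and Eef1a1, the general form, had 15894 and 21788 on day 4, against 10499.9 and 10202 on day 0. In the Z-disc and cytoskeleton, Actn3, the alpha-actinin of fast fibers, had 8804 and 9826 on day 4, against 27255 and 26977 on day 0, and Actn1, the non-muscle form, had 4557 and 4018 on day 4, against 1378 and 993 on day 0. The glucose transporter Slc2a1 (GLUT1) rose by 1.16.

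**Figure D3:**
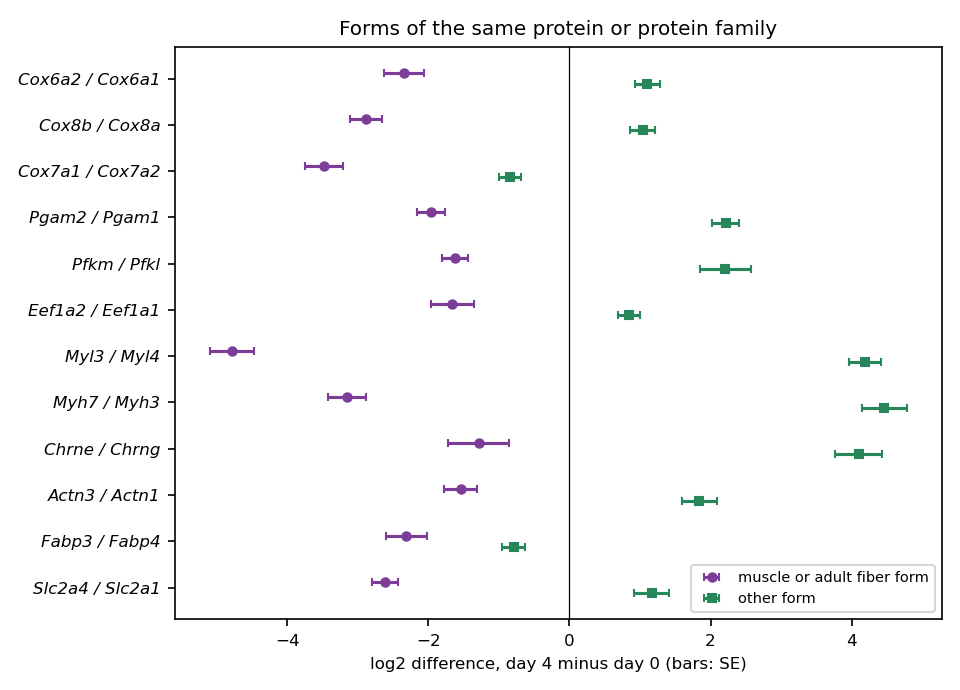
Log2 difference (day 4 minus day 0, bars: SE) of 12 pairs of a muscle or adult fiber form (purple circles) and another form (green squares). The pairs were picked after their values were seen; the muscle forms lie between -4.78 and -1.29, and among the other forms Cox7a2 and Fabp4 lie below 0.

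Macrophage genes had the highest median of the 48 lists, with 33 of 35 higher, 0 lower and a median of 2.68. Cd68, a lysosomal protein of macrophages, had 2662 and 2905 on day 4, against 242 and 283 on day 0 (3.26 ± 0.20), and Lyz2, their lysozyme, had 10696 and 10084 on day 4, against 1026 and 1291 on day 0 (3.14). Csf1r, the receptor of the macrophage growth factor, had 6526 and 7672 on day 4, against 1789.8 and 2230.1 on day 0 (1.81), and the resident macrophage markers Adgre1 and Mrc1 rose less, by 1.31 and 1.27. Arg1, the arginase of repair macrophages, had 718 and 1728 on day 4, against 86.3 and 84.6 on day 0, at least 12.2-fold higher, or at least 7.18-fold by replicate 1 of day 4 alone, since its day 4 arrays were far apart. Apoe, which carries lipid from engulfed cells, had 11229 and 13930.3 on day 4, against 986 and 1309.5 on day 0 (3.42), and the elastase Mmp12 rose at least 6.35-fold.

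The machinery of engulfment rose with them. Of 39 lysosome genes 30 rose (median 1.30), and of 28 genes of the phagocyte oxidase, receptors and iron handling 20 rose and 2 fell. Cathepsin S (Ctss) had 7778 and 9568 on day 4, against 630.1 and 1203 on day 0 (3.26 ± 0.24), and the general cathepsins Ctsb, Ctsd and Ctsl rose by 1.30, 1.32 and 1.16. Lgmn (legumain), a lysosomal protease, rose by 3.19 and Acp5, a phosphatase of macrophages and osteoclasts, at least 7.19-fold. Hmox1, which breaks down heme, had 1006 and 1615 on day 4, against 84.6 and 161 on day 0 (3.12), and Tfrc, the transferrin receptor that takes up iron, fell, with 2679 and 1589.7 on day 4, against 6497 and 6825 on day 0 (-1.67). The oxidase subunit Cybb had 491 and 236 on day 4, against 188 and 255 on day 0 and did not pass, beside the rise of its partner Cyba.

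Of 16 complement genes 11 rose and 3 fell. The 3 chains of C1q, made by macrophages, rose together, C1qa by 2.88, C1qb by 2.81 and C1qc by 2.89, while Cd59a, which shields cells from complement, fell by 1.0. Class II presentation rose in 7 of 12 genes and fell in 0. H2-Aa had 3682 and 3230.3 on day 4, against 475 and 677 on day 0 (2.54 ± 0.32), and the invariant chain Cd74 had 2671 and 3060.5 on day 4, against 629 and 684 on day 0 (2.07). Itgax (CD11c), an integrin of dendritic cells and some macrophages, had 1264 and 929 on day 4, against 145 and 152 on day 0 (2.63).

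Among chemokines and cytokines, 14 of 33 rose and 1 fell. Ccl2, which draws monocytes from blood, had 302 and 542 on day 4, against 93.4 and 27 on day 0, at least 4.22-fold higher. Tgfb1, which restrains inflammation and drives matrix deposition, had 1893 and 1550.2 on day 4, against 257 and 310 on day 0 (2.47 ± 0.25), and the interleukin 1 antagonist Il1rn rose by 2.28. The inflammatory cytokines Il1b, with 206 and 271 on day 4, against 247 and 288 on day 0, and Tnf, with 124 and 39.6 on day 4, against 43.4 and 207 on day 0, did not pass, and their arrays overlapped between the days. Ccl11 (eotaxin), the eosinophil attractant, fell at least 3.97-fold, with 50.3 and 96.7 on day 4, against 352 and 442 on day 0. Interferon response genes rose in 9 of 27 cases, led by Oas1a (1.76), and Iigp1 fell by 1.86. The interferon-induced Ifit1 and Irf7 did not pass, at 0.76 and 0.55, though Ifit1 passed in 3 of 17 alternatives.

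The median difference was 0.68 over neutrophil genes and 0.23 over lymphocyte genes. Of 14 neutrophil genes 6 rose. The summed signal of 4 neutrophil markers was 1094 and 1373 on day 4, against 381 and 476 on day 0, and 2 of the 4 rose. S100a8, an abundant protein of neutrophils that pairs with S100a9, had 341 and 450.2 on day 4, against 15 and 72.9 on day 0, at least 3.95-fold higher, while S100a9 had 127 and 283 on day 4, against 105 and 94.1 on day 0 and did not pass. The receptor Csf3r rose at least 4.08-fold. Of 19 lymphocyte genes 2 rose, Cd52, which macrophages also carry, by 2.92 and Thy1, also a marker of fibroblasts and nerve, by 0.73, a call lost without control day 0 replicate 1 (0.61) or when control day 4 replicate 2 was left out (0.65). The T cell gene Cd3g had 46.6 and 49.6 on day 4, against 47.1 and 55.2 on day 0, under the minimum on all 4 arrays.

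Of 30 genes of collagens and their processing, 16 rose and 1 fell. Col1a1 had 14769 and 19817 on day 4, against 24957 and 24072 on day 0 (-0.52 ± 0.21, adjusted p = 0.068), and Col3a1 had 13483 and 16628 on day 4, against 14205 and 13239 on day 0 (0.13), neither of them past the threshold. The call depended on the setting: Col3a1 passed with quantile normalization (0.52), and Col1a1 passed as lower without control day 4 replicate 2 (-0.73). Type V collagen, which sets the width of new fibrils, rose, with 9158 and 12279 on day 4, against 1726 and 2414 on day 0 for Col5a1 (2.36 ± 0.19) and 1.38 and 1.64 for Col5a2 and Col5a3. Plod2, the lysyl hydroxylase of stable crosslinks, had 2370.3 and 2722 on day 4, against 229.5 and 251 on day 0 (3.24), and the crosslinking oxidase Loxl1 rose by 1.96. The basement membrane collagen Col4a1 had 5778 and 7326 on day 4, against 6196 and 6423 on day 0 and did not pass, while Col18a1 rose by 1.67.

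Of 36 matricellular proteins and proteoglycans, 19 rose and 2 fell. Tnc (tenascin C), a matrix protein of wounds and of development, had 7629 and 6307 on day 4, against 919.5 and 1254 on day 0 (2.66 ± 0.25), Postn (periostin) had 12607 and 13667 on day 4, against 2595 and 2913 on day 0 (2.24), and fibronectin (Fn1) had 13229 and 14917 on day 4, against 5490.1 and 4894 on day 0 (1.43). The hyaluronan receptor Cd44 rose by 2.47 and versican (Vcan), which binds hyaluronan, by 1.84. The small proteoglycans differed: biglycan (Bgn) had 12538 and 17038 on day 4, against 3823 and 2673 on day 0 (2.18), decorin (Dcn) had 9132 and 6716 on day 4, against 15897 and 9565 on day 0 and did not pass, and Fmod (fibromodulin), a proteoglycan of tendon, had 2973 and 2280.1 on day 4, against 7784 and 8024 on day 0 (-1.59; -1.40 and not past the threshold without control day 4 replicate 2). The lower sum of the tendon markers, given above with Chad, stands beside this fall too. Decorin passed as lower with the replicate number as a block (-0.65). Sparc had 17261 and 19170.5 on day 4, against 23116 and 15178 on day 0, with the day 0 arrays on either side of the day 4 arrays.

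Proteases that cut the matrix rose in 17 of 29 cases, their inhibitors among them. Mmp14, the membrane-bound collagenase, had 4169 and 3235 on day 4, against 663 and 667 on day 0 (2.41 ± 0.26), and Mmp2, the gelatinase it activates, had 5127 and 5408 on day 4, against 1924 and 2147 on day 0 (1.36). Adam8 rose by 2.49 and the aggrecanase Adamts4 by 2.31. The inhibitors split: Timp1 had 3109.8 and 3629.7 on day 4, against 596 and 651 on day 0 (2.37), and Timp4 had 164 and 207 on day 4, against 883 and 353 on day 0 (-1.46; -0.83 and not past the threshold without control day 0 replicate 1). Plau, the urokinase, had 142 and 84.3 on day 4, against 126 and 95.7 on day 0 and did not pass, and its receptor Plaur rose by 1.15. Fibroblast and fibro-adipogenic genes rose in 13 of 22 cases, or 8 without control day 4 replicate 2. The summed signal of 5 defining fibroblast markers was 41233 and 47048 on day 4, against 57480 and 49830 on day 0, and 1 of the 5 rose. Among the rises were Pdgfra, the receptor that marks these progenitors, by 0.85, Fap by 1.20 and Fstl1 by 1.47. Of the TGF-beta and Wnt pathway 16 of 35 rose and 6 fell, or 3 without control day 0 replicate 2. Ltbp2, a microfibril protein, had 1348 and 1523 on day 4, against 139.7 and 130.5 on day 0 (3.13 ± 0.18), Tgfb3 rose by 1.82, the Wnt inhibitor Sfrp2 by 2.50, and Wnt4 fell at least 3.59-fold.

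Genes of cell division rose. Of 44 mitosis genes 37 rose and 0 fell (median 1.52), and of 39 replication genes 23 rose and 0 fell (median 0.97). Mki67, a protein of dividing cells' chromosomes, had 1226 and 1605 on day 4, against 179 and 218 on day 0 (2.64 ± 0.26). Birc5 (survivin), part of the complex that guides chromosome separation, had 1059 and 948 on day 4, against 131 and 145 on day 0 (2.61), and the checkpoint kinases Bub1 and Bub1b rose at least 2.22-fold and at least 3.24-fold. Rrm2, the ribonucleotide reductase subunit of S phase, had 1389 and 1699 on day 4, against 238 and 309 on day 0 (2.37), Pcna, the clamp of the DNA polymerase, had 2888 and 2554 on day 4, against 1258 and 1481 on day 0 (0.98), and the helicase subunit Mcm6 had 752 and 756 on day 4, against 25.5 and 192 on day 0 (2.79). Mcm2 of the same complex had 666 and 629 on day 4, against 188 and 677 on day 0, where the day 0 arrays disagreed, and did not pass.

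Genes of cell cycle exit and G1 control, a list of both inhibitors and drivers of division, moved both ways. Cdkn1a (p21), the inhibitor that differentiating myoblasts make, had 4965 and 4022 on day 4, against 547 and 486 on day 0 (3.04 ± 0.28, adjusted p = 3.7e-08). Of the 30 genes, 12 rose, 15 did not pass and 3 fell, or 1 when control day 0 replicate 1, day 0 replicate 2 or day 4 replicate 1 was left out. Cyclin D3 (Ccnd3), which stays high in differentiated muscle cells, had 1866 and 1752 on day 4, against 729.6 and 729 on day 0 (1.27), and cyclin D1 (Ccnd1) had 1348 and 1940.4 on day 4, against 893 and 1097 on day 0 (0.69), a call lost in 9 of 17 alternatives (0.43 to 0.83 there). The kinase Cdk4, partner of the D cyclins, rose by 1.54 and Myc, which drives growth and division, by 1.29. Rb1, the retinoblastoma gene, had 708 and 674 on day 4, against 626 and 719 on day 0 and did not pass. E2f6, a repressive E2F factor, fell by 1.64.

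Genes of the cytoskeleton of motile and immature cells rose. Of 40 genes of the actin cytoskeleton and motility 34 rose and 0 fell. Thymosin beta 10 (Tmsb10), which binds free actin, had 14889 and 17772 on day 4, against 2419 and 2570.3 on day 0 (2.69 ± 0.20), and Myh9, the non-muscle myosin heavy chain, had 4374 and 3999 on day 4, against 2133 and 1823 on day 0 (1.07). Actg1, the gamma cytoplasmic actin, rose by 0.68, while Actb, the beta form, had 14749 and 14893 on day 4, against 19258 and 19555 on day 0 and did not pass. Of 22 tubulins and intermediate filaments 14 rose and 3 fell. Tubb6, a beta-tubulin, had 4452 and 4664 on day 4, against 389 and 406 on day 0 (3.42 ± 0.21), while the alpha-tubulin Tuba4a fell by 1.46 beside Tuba8. Vimentin (Vim) and nestin (Nes), filaments of immature muscle and mesenchymal cells, rose by 1.06 and 1.47, and desmin (Des), that of the mature fiber, had 5854 and 8498 on day 4, against 9494 and 9000.1 on day 0 and did not pass, except as lower without control day 4 replicate 2 (-0.66).

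Of 25 nuclear envelope genes 10 rose and 3 fell in these control muscles. Lmna, the lamin A/C gene, had 3785 and 3702 on day 4, against 923 and 856 on day 0 (2.03 ± 0.22, adjusted p = 2.5e-07). Lmnb1, a B-type lamin of every cell, had 1033 and 1411 on day 4, against 518 and 563 on day 0 (1.12), and Lmnb2 rose at least 2.71-fold. Emd (emerin) had 663 and 722 on day 4, against 587 and 769.6 on day 0, and the day 4 arrays lay between the day 0 arrays. Nup210, a pore protein that rises when myoblasts differentiate in culture, fell, with 195 and 298 on day 4, against 713 and 588 on day 0 (-1.31), and Syne1 (nesprin 1) did not pass (0.24).

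Among genes of protein production, the highest share of rises was at the endoplasmic reticulum, where 24 of 39 genes rose and 2 fell. Sec61a1, the channel of protein entry, had 3428 and 2699 on day 4, against 950 and 839 on day 0 (1.73 ± 0.24), and the chaperone Hspa5 had 6418 and 6664 on day 4, against 3874 and 3342 on day 0 (0.86). Ribosome biogenesis genes rose in 7 of 36 cases, a share near that of all genes, with Npm1 at 0.88 and Nop56 not past the threshold (0.091). Cytosolic ribosomal proteins rose in 13 of 41, a count that depended on the scaling: 25 rose with quantile normalization, 6 with median scaling, 3 when control day 0 replicate 2 was left out, and 6 without control day 4 replicate 2. Translation factors went both ways, with 10 of 37 higher and 8 lower, or 4 lower without control day 0 replicate 1 or control day 4 replicate 2. Of 2 forms of the same helicase, Eif4a1 had 6319.8 and 5895 on day 4, against 2963 and 3279.7 on day 0 (0.96) and Eif4a2 had 3538 and 3052 on day 4, against 7206 and 7649 on day 0 (-1.17). The amino acid response rose in 8 of 25 genes, among them asparagine synthetase (Asns, 1.46) and Psat1 of serine synthesis (1.65), whereas Atf4 and Ddit3 did not pass (-0.20 and 0.11). Sterol synthesis, with 2 of 21 higher and 3 lower, had shares near or under those of all genes; Hmgcs1 had 1708 and 2302 on day 4, against 1963 and 2053 on day 0 and did not pass.

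Genes of protein breakdown and stress were mixed. The proteasome had 1 of 34 higher and 7 lower, such as Psmd6 (-1.26) and Psmb7 (-0.94), and 4 lower without control day 0 replicate 1. Atrophy and autophagy genes had 7 of 26 higher and 8 lower, or 4 without control day 4 replicate 2. Fbxo32 (atrogin 1), a ubiquitin ligase of wasting muscle, had 333 and 616 on day 4, against 581 and 874 on day 0, with overlapping arrays, Bnip3, of mitochondrial autophagy, fell by 1.70, and Klf15, a glucocorticoid-induced regulator of muscle metabolism, had 14.9 and 11.7 on day 4, against 290.3 and 226 on day 0, at least 2.58-fold lower. Metallothionein 2 (Mt2) rose by 1.66. Of 29 heat shock and redox genes 9 rose and 8 fell, or 5 without control day 0 replicate 2. Hsp90aa1 had 4219 and 3900.2 on day 4, against 1542 and 1546 on day 0 (1.38), the lens and muscle chaperone Cryab had 3398 and 2820.5 on day 4, against 9006 and 7772 on day 0 (-1.42), and the mitochondrial superoxide dismutase Sod2 fell by 1.31.

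Lists of endothelial, adipocyte, Schwann and erythroid genes had medians of 0, -0.72, -0.48 and -0.38. Of 19 endothelial genes 4 rose and 2 fell, with 1 or 2 rising when control day 0 replicate 1, day 0 replicate 2 or day 4 replicate 2 was left out. These shares were near or under those of all genes, 19.5% higher and 14.3% lower. The defining markers Pecam1, with 651 and 767 on day 4, against 802 and 622 on day 0, and Cdh5, with 695 and 588 on day 4, against 719.7 and 571 on day 0, had overlapping arrays. Plvap, of permeable vessels, rose by 1.25 and the capillary water channel Aqp1 fell by 1.49. Adipocyte genes fell in 6 of 13 cases, among them Lpl, also made by muscle fibers (-1.28), and Fabp4 (-0.79), while Adipoq, a product of fat cells alone, had 925 and 1358 on day 4, against 1279 and 1875 on day 0 and did not pass. The Schwann cell gene Mbp, of myelin, had 528 and 2229 on day 4, against 5650.2 and 5077 on day 0 (-2.26), its other probe sets ranged from -2.19 to 1.93, and it did not pass without control day 4 replicate 1 (-1.25) or without either day 0 array (-2.18 and -2.34). Of 5 erythroid genes Alas2, of heme synthesis, fell at least 5.35-fold, with 715 and 356 on day 0, and 4 did not pass; without control day 0 replicate 1 neither did Alas2 (-2.11). Of 16 clock genes 6 fell and 0 rose. Dbp had 408 and 626 on day 4, against 1949.5 and 2081 on day 0 (-1.93 ± 0.25) and Nr1d1 had 370.2 and 419 on day 4, against 1498 and 1064 on day 0 (-1.60), while the core activator Arntl had 210.4 and 224 on day 4, against 178 and 192 on day 0 and did not pass. The hour at which the muscles were taken is not in the labels, and its part in these values was not tested.

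**Figure D4:**
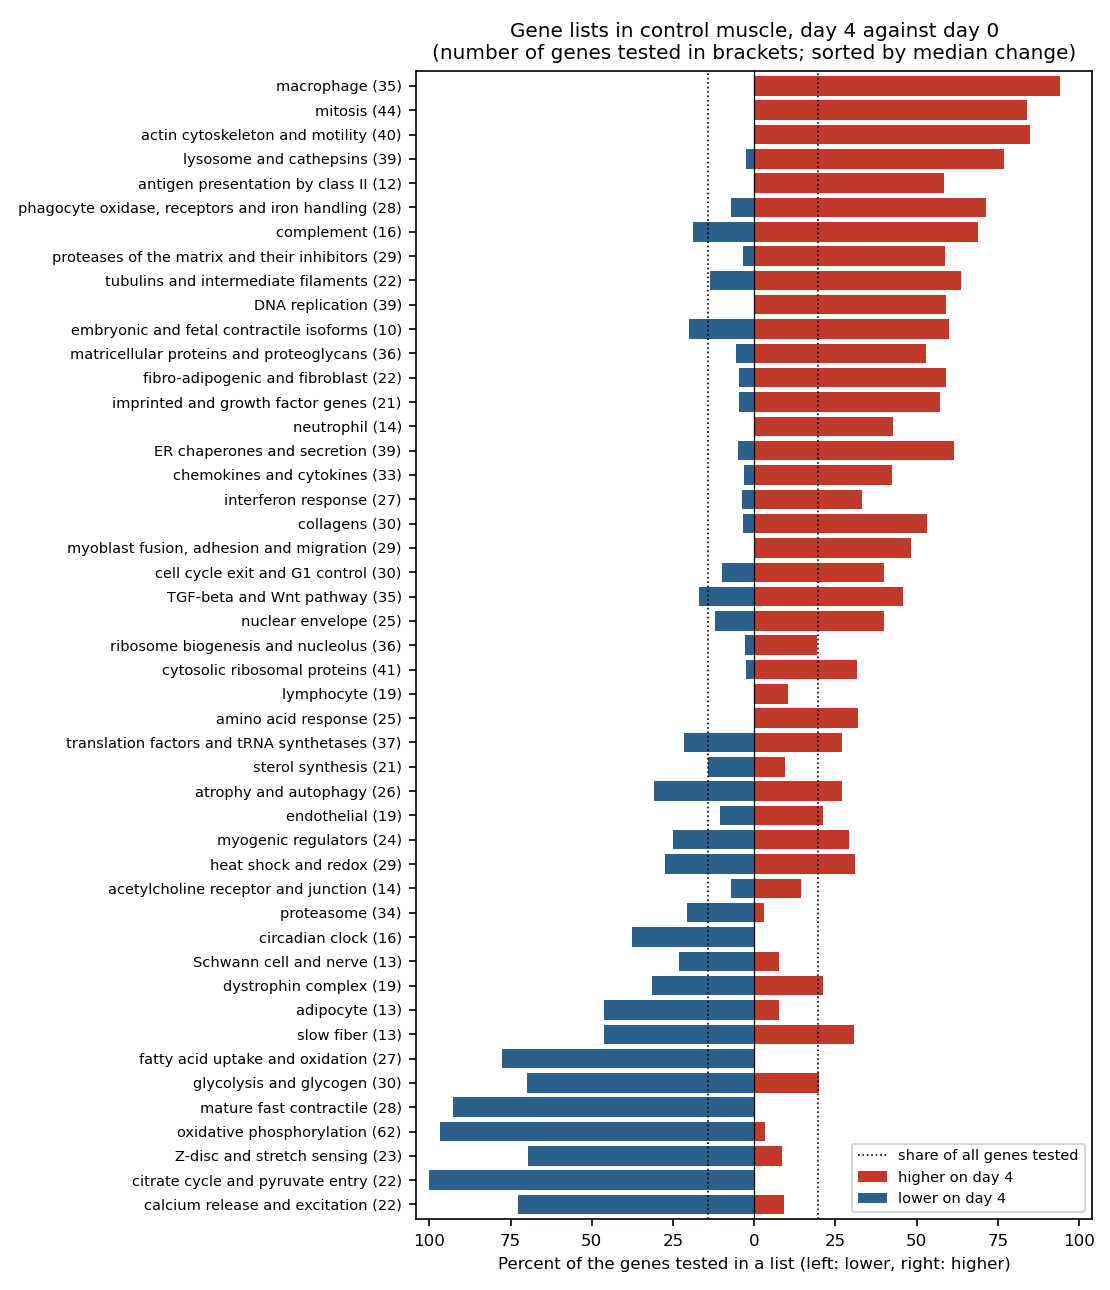
Percent of the tested genes of each list that rose (red, right) and fell (blue, left) on day 4, sorted by the median difference. Only lists with 10 or more genes tested are drawn. Dotted lines give the shares among all genes, 19.5% and 14.3%; macrophage, mitosis and actin genes lie far past the first, and citrate cycle, oxidative phosphorylation and fast contractile genes far past the second.

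The 2 day 4 arrays differed from each other more than the arrays of the other control groups did. Between them 600 genes (5.37%) were more than 1 apart on the log2 scale, against 347 (3.11%) between the day 3 arrays and 435 (3.90%) between the day 0 arrays. The spread showed in single genes. Arg1 had 718 and 1728 on day 4, Mbp 528 and 2229, and the acute phase protein Hp 1572 and 3496, against 170 and 315 on day 0 (3.17). Replicate 2 also had the higher Gapdh ratio, and the part of RNA quality in its values was not tested beyond a fit with that ratio as a covariate, in which 2199 genes rose and 1607 fell.

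Day 4 stood close to day 3, which was the other control time after injection. The day 4 arrays correlated at 0.9566 to 0.9721 with the day 3 arrays, and at 0.9589 with each other. The spread between the 2 day 4 arrays was thus about as large as the gap between the days. Against day 0, 2244 genes (20.1%) rose and 1580 (14.2%) fell on day 3, and 2178 and 1592 on day 4, with the same day 0 arrays in both comparisons. Tested against each other, day 4 was higher than day 3 for 5 genes (0.0448%) and lower for 0 by limma. At an unadjusted p under 0.05, 303 genes were higher and 228 lower. If no gene differed, a share of about 0.05 of the 11164 genes would still meet that cutoff. The unadjusted counts together did not exceed that share, so they do not show a difference between the days. Leaving out 1 array at a time gave 1 to 10 higher and 0 to 1 lower. The gene furthest apart was Atp1b4, which had 1490.5 and 1172 on day 4, against 141 and 113 on day 3, with 253 and 333 on day 0 (log2 difference 3.10 ± 0.35, adjusted p = 0.00015 for day 4 minus day 3). On day 3 it thus lay under both day 0 arrays, and on day 4 above them.

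Atp1b4 passed in every alternative and with each array left out in turn. The other 4 did not pass without control day 3 replicate 1 (adjusted p = 0.276 to 0.417) and were lost in further alternatives. Myh8 had 3891 and 5109 on day 4, against 1754 and 1787 on day 3 (log2 difference 1.32 ± 0.22, adjusted p = 0.031). Myh7 had 1066 and 617 on day 4, against 254 and 251 on day 3 (log2 difference 1.57 ± 0.27, adjusted p = 0.032), both far under its day 0 signals of 8087 and 6916. Both day 4 arrays were above both day 3 arrays for each. Islr (meflin), a protein of mesenchymal cells, had 2578 and 2511 on day 4, against 1248 and 1343 on day 3 (log2 difference 0.96 ± 0.17, adjusted p = 0.032), and Rflnb, a filamin-binding protein, had 859.8 and 763, against 438 and 398 (log2 difference 0.90 ± 0.16, adjusted p = 0.035). Gaps of some other genes did not pass. Myh2 had 7186 and 5435 on day 4, against 636 and 1417 on day 3, S100a8 had 341 and 450.2, against 1674 and 1522, and Chrng had 1139 and 1345, against 1562 and 3482, and none of the 3 passed.

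**Figure D5:**
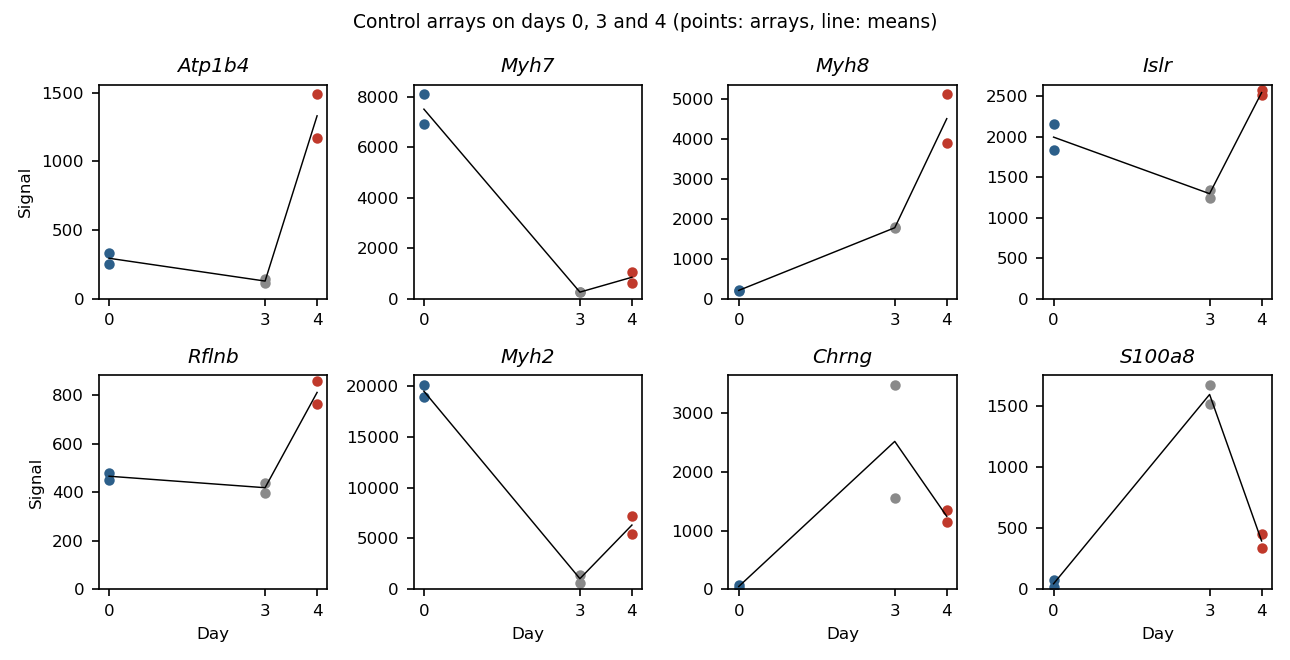
Signal of 8 genes on the 2 control arrays of day 0 (blue), day 3 (grey) and day 4 (red), with a line through the means. Atp1b4, Myh7, Myh8, Islr and Rflnb were higher on day 4 than on day 3 past the threshold; Myh2, Chrng and S100a8 were not past it.

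The response was also set against that of lamin A/C KO muscle, as the KO difference of day 4 and day 0 minus the control difference. Of 11164 genes, 2 (0.0179%) had a higher and 21 (0.188%) a lower response in the KO past the threshold, 0.206% in all. The labels give the KO day 0 arrays as 0 days after injection and the control ones as not injected. Sln had 3992, 4917 and 5279 on KO day 4 and 5910.1 and 5971 on control day 4, against 7402, 4958 and 7107 on KO day 0 and 711 and 667 on control day 0 (-3.49 ± 0.30, adjusted p = 1.7e-06). Its KO day 0 arrays were thus close to or above its day 4 arrays, and far above control day 0. Ankrd1 had 1588, 1793 and 1222 on KO day 4 and 2019.6 and 1326 on control day 4, against 1891, 1485 and 1354 on KO day 0 and 338 and 239.7 on control day 0 (-2.44 ± 0.36, adjusted p = 0.0025). Its control day 0 arrays were the lowest, and the other 3 groups overlapped. Myh8 had 2709, 2908 and 2183 on KO day 4 and 3891 and 5109 on control day 4, against 534, 636 and 773 on KO day 0 and 209.6 and 195 on control day 0 (-2.30 ± 0.28, adjusted p = 0.00033), lower on each KO day 4 array than on either control day 4 array and higher on each KO day 0 array. Hspa1b, an inducible heat shock protein that the array may not tell from its near-identical copy, had 466, 431 and 560.4 on KO day 4 and 574 and 609 on control day 4, against 1992, 1725 and 1821 on KO day 0 and 536 and 408 on control day 0 (-2.18 ± 0.32, adjusted p = 0.0025). Serpinb1a, a protease inhibitor of leukocytes, had 877, 753 and 547 on KO day 4 and 621 and 484 on control day 4, against 246, 327 and 265 on KO day 0 and 20 and 10.4 on control day 0. Its KO day 0 arrays were above the control ones, which lay under the minimum, so the pseudocount sets the size of its difference: -2.36, or -1.39 with a pseudocount of 100 and -1.28 with the mean of all probe sets, neither of these past the threshold. The higher responses were those of Arhgap27, at 1.97, and Acvr1b, an activin receptor, at 1.15, each of which had lower day 0 signals in the KO than in control. Sln, Ankrd1, Myh8 and Hspa1b passed in all 22 alternatives run, while the call of Serpinb1a was lost in 3, that of Arhgap27 in 11 and that of Acvr1b in 12.

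Against emerin KO muscle, 40 genes (0.358%) had a higher and 24 (0.215%) a lower response in the KO, 0.573% in all. The Gapdh 3'/5' ratio was 1.40 to 5.30 on the 3 emerin KO day 4 arrays, against 0.932 and 1.23 on control day 4, and its part in these differences was not tested beyond the alternatives tried. Xdh, the xanthine dehydrogenase, had 687, 698 and 647 on KO day 4 and 339 and 429 on control day 4, against 329.6 and 491 on KO day 0 and 1775 and 1243 on control day 0 (2.58 ± 0.32, adjusted p = 0.00046), so that it rose in the KO and fell in control. Pla2g7, a macrophage phospholipase, had 496, 799.6 and 731 on KO day 4 and 1316 and 1048 on control day 4, against 547 and 436 on KO day 0 and 146 and 207 on control day 0 (-2.13 ± 0.35, adjusted p = 0.0048). Rpl3l had 59, 78.4 and 96.8 on KO day 4 and 533 and 372 on control day 4, against 7219 and 7499.7 on KO day 0 and 7047 and 5801 on control day 0 (-2.33 ± 0.46, adjusted p = 0.018), a deeper fall than in control, with the KO day 4 arrays under the minimum. Chac1, a glutathione-degrading enzyme of the stress response, differed by -2.86, with 379.8, 176 and 232 on KO day 4 and 199 and 223 on control day 4, against 3742 and 1560.4 on KO day 0 and 197 and 334 on control day 0, so that here the KO day 0 arrays stood apart. Without the emerin KO arrays whose ratio exceeded 2, an alternative chosen after seeing the data, 6 responses were higher and 4 lower, and Pla2g7 (-1.87) and Rpl3l (-2.31) were not past the threshold. Of the 21 alternatives run, Xdh passed in all, and the call was lost in 2 for Pla2g7, 6 for Rpl3l and 2 for Chac1, the last when only the 4 compared groups were fitted or control day 0 replicate 1 was left out (-2.52).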

How the data were processed

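RNA of gastrocnemius muscle was hybridised to Affymetrix mouse expression arrays, 23 in all. The authors deposited 1 intensity (MAS5 signal, linear) per probe set and array, per the submitters' processing notes, with no version given in the sources used here. Each array had a trimmed mean of 150.04 to 150.06 as deposited, was rescaled to 500 (2% trimmed at each end), then put on the scale of log2(signal + 32). The array holds 22690 probe sets, of which 20380 had 1 gene in the platform annotation, 691 several, 1555 none and 64 were controls, and only those with 1 gene were used. Each of 12393 genes was read from its brightest probe set, 4956 of them having several, and 11164 reached 100 on at least 2 arrays. Probe sets whose suffix marks shared sequence can also read related genes.

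limma 3.58.1 (R 4.3.3; eBayes with an intensity trend) was fitted to all 9 groups, with 14 residual degrees of freedom and Benjamini-Hochberg adjustment. In simulated data for day 4 minus day 0 on the 11164 genes, it called 51% of genes changed 2-fold and 88% of those changed 4-fold, with 7 false calls. Only 100 genes of each size were changed there, a far smaller share than the 33.8% that passed in the data. The adjusted threshold was therefore stricter in the simulation, and its rates do not describe the real comparison. The 48 gene lists (1388 symbols, 1229 on the array, 1211 tested) and all members were chosen with earlier results of these data known. Named genes are the 15 largest rises and falls without overlap, leaving out cDNA clones and gene models without a gene name. They are also each list's key genes and up to 6 others of large difference. All genes past the threshold for day 4 minus day 3 are named, and up to 5 each way per KO comparison. Slc2a1 was added after its values were seen. Some key genes whose probe sets disagreed in direction, such as Dmd, Mb, Top2a, Acta2 and Ncam1, were counted but not described. That choice was made with their values known, and it was not applied to every such gene: Mbp is described with the range of its probe sets. Alternatives were quantile and median scaling, the values as deposited, other pseudocounts (1 and 100), the mean over a gene's probe sets, no filter, no intensity trend, a replicate block, the Gapdh ratio as a covariate, fewer groups in the fit and each array left out. Promoters were taken from RefSeq; protein sequences were not used here.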

Additional observations from a re-analysis of the deposited data

Results flagged for a closer look

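Differences between groups that themselves passed a test are collected here as values, with no explanation. No group of the series holds 4 or more arrays, so single arrays were not screened as outliers. Between control day 4 and control day 3, the log2 difference was 3.10 for Atp1b4, 1.57 for Myh7, 1.32 for Myh8, 0.96 for Islr and 0.90 for Rflnb, each higher on day 4.

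Between lamin A/C KO and control, the day 4 minus day 0 response differed by 1.97 for Arhgap27 and 1.15 for Acvr1b, whose other probe set had the opposite sign in the control response. It differed by -3.49 for Sln, -2.44 for Ankrd1, -2.36 for Serpinb1a, -2.30 for Myh8 and -2.18 for Hspa1b. The value of Serpinb1a rests on control day 0 arrays under the minimum signal. Of these 5 genes with a lower response, the day 0 arrays were higher in the KO than in control, and in control the labels give them as not injected.

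Between emerin KO and control, the response differed by 2.59 for Spsb2, 2.58 for Xdh, 2.32 for Cklf, whose probe sets disagreed in sign in the control response (0.11 and not past the threshold with the mean of all of them, 1.55 and not past it with a pseudocount of 100), 2.02 for Acad10 and 1.98 for Tent5c. It differed by -2.86 for Chac1, -2.33 for Rpl3l, -2.19 for Pdzrn3, -2.13 for Pla2g7 and -2.12 for Pfkfb3. Spsb2, an adaptor of a ubiquitin ligase, had 566, 646 and 557 on KO day 4 and 498 and 263 on control day 4, against 38 and 31.7 on KO day 0 and 213 and 236 on control day 0. Pdzrn3, a ubiquitin ligase of the neuromuscular junction, had 202, 420.2 and 135 on KO day 4 and 784 and 658 on control day 4, against 2069.7 and 1996 on KO day 0 and 1168 and 1390.2 on control day 0. The KO day 0 arrays of Spsb2 and of Cklf, with 20.9 and 31, lay under the minimum, so the size of their differences rests on the pseudocount, and Spsb2 was at 1.10 and not past the threshold with the mean of all probe sets. Of the 21 alternatives run, the call was lost in 4 for Spsb2, 6 for Cklf, 9 for Acad10, 4 for Tent5c, 2 for Chac1, 6 for Rpl3l, 5 for Pdzrn3, 2 for Pla2g7 and 16 for Pfkfb3. Without the arrays of high Gapdh ratio Pdzrn3 was at -1.39, and without control day 0 replicate 1 Pfkfb3 was at -1.44. Of both Spsb2 and Pdzrn3 the KO day 0 arrays lay outside the control day 0 arrays. The Gapdh 3'/5' ratio was 1.40 to 5.30 on emerin KO day 4 and 0.932 to 1.23 on control day 4, against 0.914 to 1.34 on emerin KO day 0 and 0.829 to 0.949 on control day 0, and its part in these values was not tested beyond the alternatives below.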

How the results depend on the processing

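With all control arrays kept, the day 4 minus day 0 counts stayed within 1797 to 2216 genes higher and 1528 to 1772 lower. Leaving out 1 array at a time gave 1673 to 1813 higher and 1183 to 1274 lower. The replicate block gave 2199 and 1624; with 2 pairs a group, whose deviations correlated at 0.174 between day 4 and day 0, the numbers were not taken as pairs. The median over all genes was 0.030, -0.028 with quantile normalization and -0.039 with median scaling. Of the 246 genes named for this comparison, 221 kept their direction and side of the threshold throughout, and 1 turned: Acta1, to 0.038 with quantile normalization. A gene past the threshold in neither of 2 settings was given no direction. The cause of each change was not tested, except that leaving out arrays lowers the number behind each test. The smaller comparisons moved more. Day 4 minus day 3 had 1 to 10 genes higher and 0 to 1 lower with 1 array left out, and 1 higher with no intensity trend, 1 under median scaling, 2 with the replicate block, 3 with only control arrays and 1 with only the compared groups; the Gapdh ratio as a covariate gave 12 and 2. The lamin A/C KO minus control response had 0 to 3 higher and 7 to 23 lower with 1 array left out, 0 and 11 with no intensity trend, 0 and 7 under median scaling, and 1 higher with only the compared groups or without the emerin KO arrays of high Gapdh ratio, the alternative chosen after seeing the data. The emerin KO minus control response had 19 to 197 higher and 7 to 104 lower with 1 array left out. It had 61 higher with quantile normalization; 10 lower with median scaling, 38 with the mean of all probe sets and 15 with the replicate block; 22 and 8 with the Gapdh covariate, 1 and 1 with only the compared groups, and 6 and 4 without the arrays of high Gapdh ratio. Genes near the minimum signal are limited by background, and 2 arrays a group limit every test.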
